A study of Rattus norvegicus with 6 samples.

Results

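The proteasome is built from many subunits, each with its own gene, and these genes were followed in RNA-seq libraries of rat PC12 cells with and without overexpression of PCBP-1, a protein that binds RNA and DNA at runs of C. Of the 20609 genes in the deposited count table, 47 protein-coding genes were taken by their symbols, from Psma to Psmg followed by a number. They were taken by name and not by their values, though the set was chosen with earlier results of these data known. Of these, 46 encode proteasome subunits, activators, an inhibitor or assembly chaperones. The remaining one, Psmc3ip, encodes a partner of an ATPase subunit that acts in meiotic recombination and is not itself a subunit, and it is described separately. Psme3, which encodes the nuclear activator PA28 gamma, was not analysed here.

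PC12 is a line derived from a pheochromocytoma of the rat adrenal medulla. Both groups were transfected PC12 cells, with 3 libraries from cells given the control plasmid (Ctrl) and 3 from cells given the plasmid for PCBP1 overexpression (PCBP1-OE), which encodes PCBP-1 with an EGFP tag. The labels call the other plasmid only a control, so the tag and PCBP-1 cannot be told apart here. The gene of PCBP-1 itself was not analysed here, so its level was not checked. The libraries held 19730209 to 22315623 counts on genes. Markers of the chromaffin cell were scarce, with 141 to 185 counts per library for Th, the enzyme that makes L-DOPA, 0 to 5 for Dbh, 0 to 3 for Chga and 0 to 9 for Chgb. Their summed level over 6 measured markers was 8.36 to 10 CPM in Ctrl (the TMM-scaled rate of counts per library) and 8.67 to 9.70 CPM in PCBP1-OE. The 8 measured leukocyte markers summed to 11.1 to 12.4 CPM in Ctrl and 9.47 to 10.9 CPM in PCBP1-OE. Of these, Cd74 had 63 to 110 counts per library, Cd68 56 to 81, Cd3e 52 to 79 and Ptprc 0 to 3. In every library 5 of the 8 were under 1 CPM. The 5 fibroblast markers summed to 255 to 258 CPM in Ctrl and 231 to 241 CPM in PCBP1-OE, mostly from Pdgfra. The 3 endothelial markers summed to 4.07 to 5.62 and 4.95 to 5.90 CPM in the same groups. None of the markers that could be tested passed an adjusted p of 0.05 (edgeR's quasi-likelihood test, as for all genes), and their part in the results was not tested. In such bulk libraries, fewer cells of a type and less RNA per cell cannot be told apart. The name PC12 is the study's, and 4 of the 6 measured chromaffin markers were under 1 CPM in every library. The identity of the cells was not tested.

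The 26S proteasome degrades proteins tagged with ubiquitin. Its core particle is a barrel of alpha rings and beta rings, and 3 of the beta subunits, Psmb5, Psmb6 and Psmb7, cut the substrate. A regulatory particle of ATPases and non-ATPase subunits caps the barrel, recognizes ubiquitin and unfolds the substrate. After interferon, many cells replace the catalytic subunits with Psmb8, Psmb9 and Psmb10, which gives the immunoproteasome, and cap it with the activator PA28, made of Psme1 and Psme2. The immunoproteasome is known for making peptides that fit MHC class I molecules.

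The first comparison asked whether the 5 interferon-inducible genes behaved differently from the other subunits in PCBP1-OE. Psme1 and Psmb10 fell by 14.0% each in PCBP1-OE, and no PCBP1-OE library reached a Ctrl library in either gene. Psmb9 and Psme2 also had groups that did not overlap, with PCBP1-OE lower, but did not pass the test, and the groups of Psmb8 overlapped. Such separation was common, with PCBP1-OE wholly below Ctrl in 16.5% of the 12624 genes and separation in either direction in 30.6%. A gene is called here at an adjusted p of 0.05 or less by edgeR's quasi-likelihood test, with the Benjamini-Hochberg method applied over the 12624 genes tested, and by this rule 2 of the 5 genes were lower and 0 were higher (4 lower and 0 higher at an unadjusted p under 0.05). Of all genes tested, 5.0% were called lower and 9.45% in either direction, and an unadjusted p under 0.05 was reached by 14.8% with a lower level and by 28.4% in either direction. The median log2 fold change of the 5 genes was -0.22, beside 0.0029 for all genes tested, and the difference between the 5 genes and the other subunits was not tested.

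Psme1 (ENSRNOG00000019041, chromosome 15), the alpha subunit of PA28, was at 183, 184 and 161 CPM in Ctrl and at 148, 147 and 159 CPM in PCBP1-OE. Every PCBP1-OE library lay under every Ctrl library, with Ctrl replicate 3 and PCBP1-OE replicate 3 closest to each other. The log2 fold change was -0.22 with a standard error (SE) of 0.06 and an adjusted p of 0.0350 (edgeR's quasi-likelihood test), from 176 ± 13.1 to 151 ± 6.49 CPM (SD, n = 3 each). Its partner Psme2 (ENSRNOG00000019246, chromosome 15), the beta subunit of PA28, was at 235, 239 and 213 CPM in Ctrl and at 197, 210 and 207 CPM in PCBP1-OE. The groups did not overlap here either, with a log2 fold change of -0.16 (SE 0.05), which missed the threshold at an adjusted p of 0.0655 in that edgeR test.

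Psmb10 (ENSRNOG00000019494, chromosome 19), the inducible counterpart of Psmb7, was at 61.4, 60.7 and 53.5 CPM in Ctrl and at 50.8, 48.2 and 51.8 CPM in PCBP1-OE. The log2 fold change was -0.22 (SE 0.06, with adjusted p = 0.0448, same edgeR test). Psmb9 (ENSRNOG00000000459, chromosome 20), the inducible counterpart of Psmb6, was at 37.7, 36.8 and 31.4 CPM in Ctrl and at 28.0, 31.2 and 31.1 CPM in PCBP1-OE. Ctrl replicate 3 lay only just above the highest PCBP1-OE library, and a log2 fold change of -0.23 (SE 0.08) came with adjusted p = 0.0841.

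Psmb8 (ENSRNOG00000000456, chromosome 20), the inducible counterpart of Psmb5, was at 34.1, 29.4 and 30.2 CPM in Ctrl and at 32.4, 36.3 and 30.5 CPM in PCBP1-OE. The highest and the lowest library were PCBP1-OE replicate 2 and Ctrl replicate 2, and the other 4 libraries were interleaved. Its log2 fold change was 0.08 with a 95% interval of -0.09 to 0.26 (adjusted p = 0.540, same edgeR test), so the sign of its difference was not resolved.

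**Figure D1:**
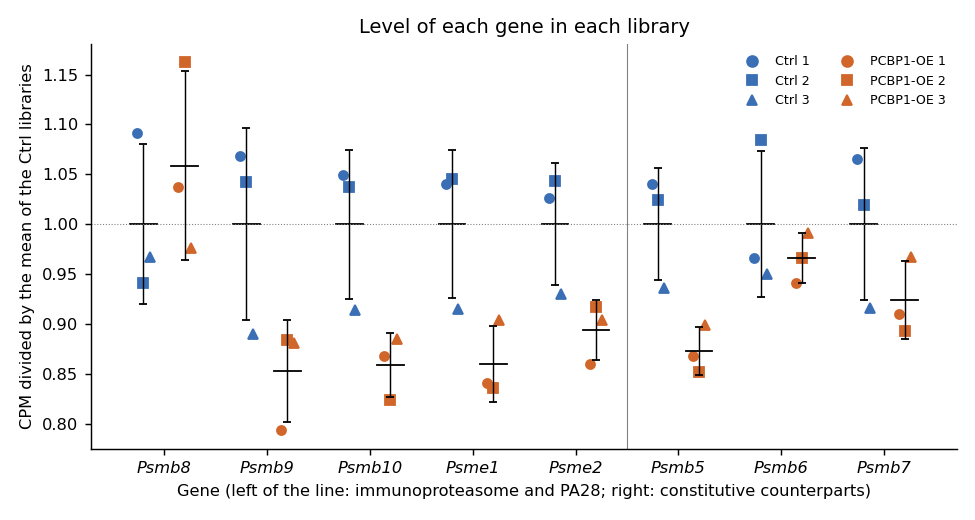
CPM of each gene (vertical axis) divided by the mean of its 3 Ctrl libraries, for the 5 immunoproteasome and PA28 genes and the 3 constitutive catalytic subunits (horizontal axis). Each point is a library, the bars are the mean ± SD of a group (n = 3), and in Psmb9, Psmb10, Psme1, Psme2 and Psmb5 every PCBP1-OE point lies below every Ctrl point.

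These calls depended on which libraries entered the fit. When each library was left out in turn, Psme1 was called in 1 of the 6 fits, the one without Ctrl replicate 3 (adjusted p = 0.00108), and its adjusted p was 0.167 and 0.203 when Ctrl replicate 1 or 2 was omitted. Omitting PCBP1-OE replicate 1, 2 or 3 gave 0.155, 0.132 and 0.0562. Psmb10 followed the same pattern, with 0.00238 without Ctrl replicate 3 and 0.155, 0.184, 0.124, 0.160 and 0.0700 without the others in the same order. The number of the 5 genes called was 4 without Ctrl replicate 3 and 0 in each of the other 5 fits. This swing was not particular to these genes. Without Ctrl replicate 3, 22.3% of all genes tested were called (11.4% lower), against 0.375% to 5.42% in the other 5 fits. The log2 fold changes themselves moved less, between -0.28 and -0.18 for both genes.

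The promoters of these genes are of interest because interferon acts on several of them through short elements in their promoters. Promoters from RefSeq (build GRCr8, 250 bases before and 50 after 1 start per gene) were found for 43 of the 47 genes, and were searched on both strands for GAAANNGAA, the core of an interferon-stimulated response element, for TTCNNNGAA, a gamma-activated site, and for TGACNNNGC, the core of an antioxidant response element. The first motif was in 3 of the 5 immunoproteasome and PA28 promoters (Psmb8, Psmb10 and Psme2), in 9 of all 43 promoters (20.9%) and in 9.71% of 33469 rat promoters. The next windows of 30 bases carry it, with the motif in capitals, read 5′ to 3′ on the strand of the gene, and are shown because they set Psmb8, which had overlapping groups, beside Psmb10, which was called lower, and 2 genes that were not called. The fourth is from Psmg4, an assembly chaperone described further on.

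Psmb8, 3 bases before the start, chr20:4657015-4657044, minus strand, motif on the opposite strand: tgctgtggctTTCGCTTTCacttccttgtc
Psmb10, 17 bases before the start, chr19:50743290-50743319, minus strand: agtggggggtGAAAGCGAAagtaggaagcg
Psme2, 53 bases before the start, chr15:33052785-33052814, minus strand: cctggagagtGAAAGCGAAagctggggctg
Psmg4, 7 bases after the start, chr17:30923347-30923376, minus strand: gcgcgcagctGAAAGTGAAagagcgctcag

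Psmb10 held the motif at 2 further positions that overlap each other, 67 and 73 bases before the start. The window at 73 bases, chr19:50743346-50743375 on the minus strand, was aagcaaaggcGAAAGTGAAagagaagatgc. The gamma-activated motif was in 4 of the 43 promoters (9.30%, against 8.87% of all promoters), among them that of Psmb8, 245 bases before the start. The promoters of Psmb9 and Psme1 held none of the 3 motifs in this window, which says only that these letters are absent from it. A match is a description and not evidence of binding.

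The second comparison was that of each inducible catalytic subunit with the constitutive subunit whose place it takes. The ratio of their counts within a library does not depend on the scaling of libraries, and only its difference between groups is read, since the genes differ in length. In PCBP1-OE, Psmb8 was higher against Psmb5, Psmb9 lower against Psmb6 and Psmb10 lower against Psmb7, and none of the 3 ratios overlapped between groups. Single genes were separate in either direction in 30.6% of those tested, and ratios of other gene pairs were not examined. With 3 libraries against 3, a two-sided exact permutation test cannot go below p = 0.1, which each ratio reached (0.1 also after adjustment over the 3 ratios), so no ratio can pass a threshold of 0.05 in this design.

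The Psmb8 to Psmb5 log2 ratio was -2.55, -2.73 and -2.56 in Ctrl and -2.36, -2.17 and -2.50 in PCBP1-OE. PCBP1-OE replicate 3 was the closest to Ctrl. The difference was 0.28 (SD within groups 0.138), a ratio 21.0% higher in PCBP1-OE. Psmb8 itself had a log2 fold change of 0.08 with overlapping groups, and Psmb5, the denominator, had one of -0.19. The Psmb9 to Psmb6 log2 ratio was -1.61, -1.81 and -1.85 in Ctrl and -2.0, -1.88 and -1.92 in PCBP1-OE, a difference of -0.18 (SD within groups 0.102). Without Ctrl replicate 1, the highest of the Ctrl values, that difference was -0.10. The Psmb10 to Psmb7 log2 ratio had the smallest spread of the 3, with -1.60, -1.55 and -1.58 in Ctrl and -1.64, -1.69 and -1.71 in PCBP1-OE. Its difference was -0.11 (SD within groups 0.028), or -7.03%.

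**Figure D2:**
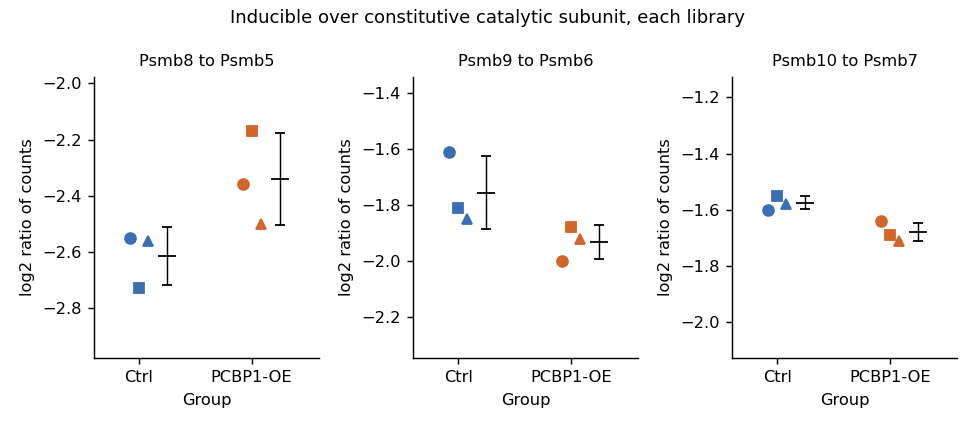
Log2 ratio of the counts of each inducible catalytic subunit to those of its constitutive counterpart (vertical axis, the same span in each panel) in the 3 Ctrl and the 3 PCBP1-OE libraries (horizontal axis). Points are libraries and bars are the mean ± SD (n = 3); the Psmb8 to Psmb5 ratio is higher in PCBP1-OE and the other 2 ratios are lower, with no overlap in any panel.

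Among the 42 other genes, 2 were called, both lower, and 35 had a log2 fold change below 0. The called genes were Psmb5, a catalytic subunit of the core, and Psmc4, an ATPase of the base. The median log2 fold change of these 42 genes was -0.068 (-0.067 without Psmc3ip). Over all 47 genes, 4 were called lower (8.51%) and 0 higher by edgeR's quasi-likelihood test, beside 5.0% called lower and 4.45% called higher of all genes (427 lower and 655 higher with upper-quartile scaling, against 631 and 562), and 39 (83.0%) had a log2 fold change below 0, beside 49.5% of all genes. At an unadjusted p under 0.05, 15 were lower and 0 higher, beside 14.8% of all genes lower and 28.4% in either direction. DESeq2 called 6 lower and 0 higher, beside 5.96% of all genes lower and 11.2% in either direction. In 14 of the 47 (29.8%) every PCBP1-OE library was below every Ctrl library, and in 1 above, while the groups were separate in 16.5% and 14.1% of all genes in these directions and in 30.6% in either. None of the 47 changed by 2-fold, the study's further condition for a differentially expressed gene, while 0.190% of all genes tested both passed an adjusted p of 0.05 and changed by at least 2-fold.

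Psmb5 (ENSRNOG00000013386, chromosome 15), which carries the chymotrypsin-like activity of the core, was at 199, 196 and 179 CPM in Ctrl and at 166, 163 and 172 CPM in PCBP1-OE. The groups did not overlap. The log2 fold change was -0.19 (SE 0.05, with adjusted p = 0.0335, edgeR's quasi-likelihood test), so that Psmb5 fell by 12.6%. Psmc4 (ENSRNOG00000018994, chromosome 1), one of the 6 ATPases that unfold the substrate, was at 229, 217 and 214 CPM in Ctrl and at 197, 194 and 201 CPM in PCBP1-OE. This was a log2 fold change of -0.16 (SE 0.04, with adjusted p = 0.0407). With single libraries left out, both genes were called only without Ctrl replicate 3 (0.00197 and 0.0119), and their adjusted p was 0.0654 to 0.187 for Psmb5 and 0.0883 to 0.200 for Psmc4 in the other 5 fits.

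All 14 ring genes other than the inducible ones and Psma8 had a log2 fold change below 0, from -0.19 to -0.040, with a median of -0.11, and with 1 library left out only Psmb6 turned, to 0.012 without Ctrl replicate 2. In the beta ring, which holds the catalytic sites, Psmb5 was called, Psmb3 was at -0.17 (adjusted p = 0.106), and Psmb2, Psmb7, Psmb4 and Psmb1 lay between -0.11 and -0.098. Psmb6, the caspase-like subunit, was at 115, 129 and 113 CPM in Ctrl and at 112, 115 and 118 CPM in PCBP1-OE, with overlapping groups and a log2 fold change of -0.054 (95% interval -0.17 to 0.06). Psmb7, the trypsin-like subunit, was at 186, 178 and 160 CPM in Ctrl and at 159, 156 and 169 CPM in PCBP1-OE. Its groups overlapped as well, through PCBP1-OE replicate 3.

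In the alpha ring, which gates the barrel of the core particle, 0 of 8 genes were called (2 lower and 0 higher at an unadjusted p under 0.05, and 0 by DESeq2). Among all genes tested 5.0% were called lower, 14.8% were lower at an unadjusted p under 0.05, and 16.5% had PCBP1-OE wholly below Ctrl. Psma7 and Psma5 were lowest, both at a log2 fold change of -0.12, with adjusted p-values of 0.131 and 0.0980 by the same edgeR test, and only Psma5 had groups that did not overlap, at 141, 141 and 133 CPM in Ctrl and 125, 126 and 131 CPM in PCBP1-OE. Psma8, an alpha subunit known from the testis, passed the filter with 6 to 22 counts per library. Its log2 fold change of 0.33 was the highest of the 47 and had a 95% interval of -0.70 to 1.37, so its direction was not resolved at this depth. Without PCBP1-OE replicate 3, its highest library, it was -0.14.

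The 6 ATPases of the regulatory particle ranged from -0.16 for Psmc4, the 1 called lower, to 0.10 for Psmc6. In Psmc3, Psmc4 and Psmc5 the groups did not overlap, with PCBP1-OE lower. Of all genes tested, 16.5% were separate in this direction and 30.6% in either. Psmc3 was at 550, 541 and 520 CPM in Ctrl and at 480, 487 and 504 CPM in PCBP1-OE (log2 fold change -0.13, adjusted p = 0.0682). Psmc6 was at 257, 258 and 258 CPM in Ctrl and at 282, 258 and 288 CPM in PCBP1-OE, so that PCBP1-OE replicate 2 lay within the Ctrl range and its log2 fold change of 0.10 had an adjusted p of 0.189.

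Of the 14 non-ATPase genes 0 were called (2 lower and 0 higher at an unadjusted p under 0.05, and 0 by DESeq2), and their median was -0.035. In 4 of the 14 every PCBP1-OE library lay below every Ctrl library, and in 1 above. Among all genes tested these shares were 16.5% and 14.1%, and 14.8% were lower at an unadjusted p under 0.05. Psmd4, a ubiquitin receptor, was the lowest, at 169, 171 and 156 CPM in Ctrl and 144, 152 and 154 CPM in PCBP1-OE (log2 fold change -0.14, adjusted p = 0.0804). Psmd14, the enzyme that removes ubiquitin from the substrate, was at 166, 175 and 178 CPM in Ctrl and at 170, 167 and 175 CPM in PCBP1-OE, with a 95% interval of -0.12 to 0.07 around -0.02. Psmd5, a chaperone of base assembly, was the only one of the 47 whose PCBP1-OE libraries all lay above the Ctrl libraries, at 157, 152 and 160 CPM in Ctrl and 162, 162 and 172 CPM in PCBP1-OE. This was a log2 fold change of 0.08 (adjusted p = 0.247).

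**Figure D3:**
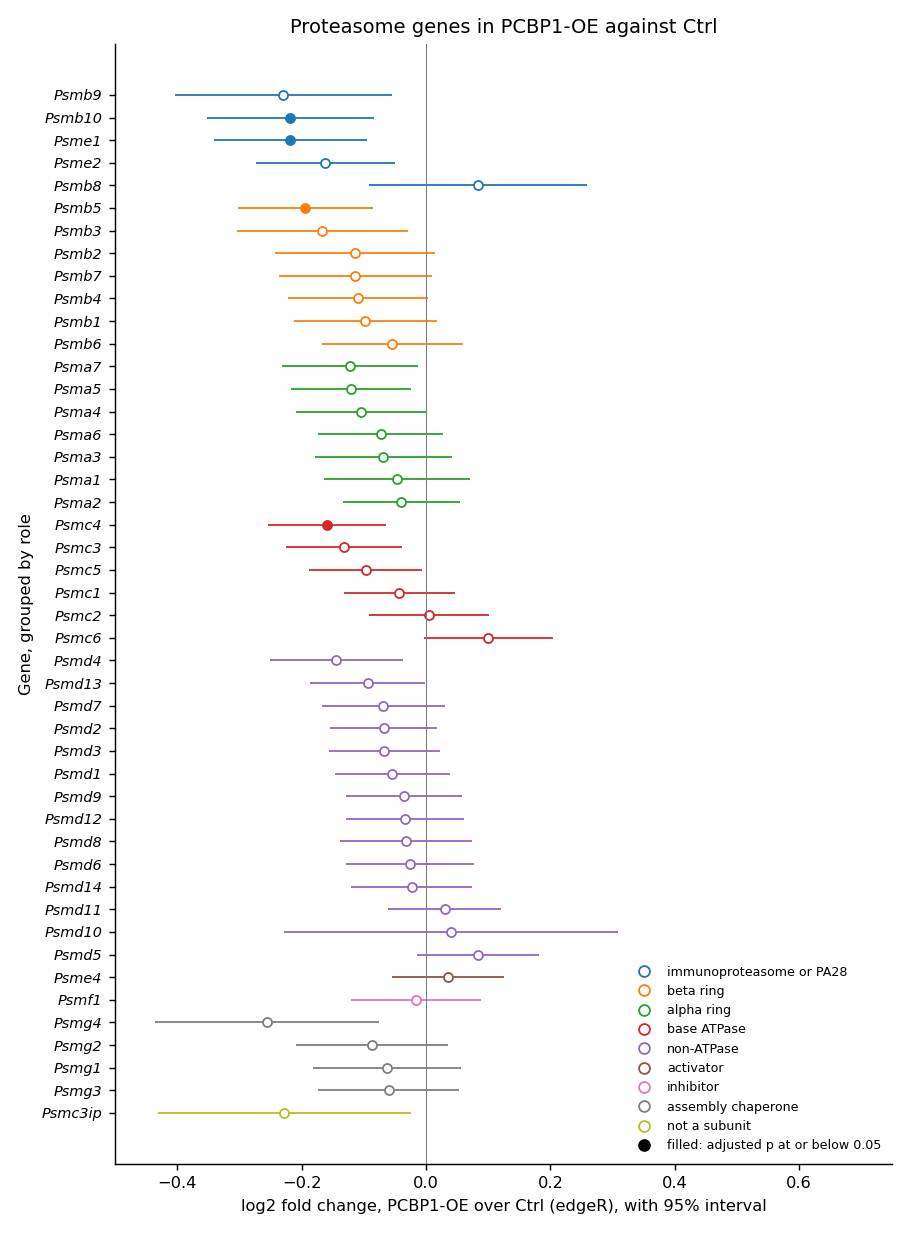
Log2 fold change of PCBP1-OE over Ctrl (horizontal axis) with its 95% interval from edgeR's quasi-likelihood fit for 46 of the genes (vertical axis, coloured by role), with Psma8 left out for its wide interval. Filled points passed an adjusted p of 0.05; these are Psmb10, Psme1, Psmb5 and Psmc4, and all core ring genes but Psmb8 lie left of 0.

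None of the other regulators and assembly genes was called, and the largest estimated difference among them was that of Psmg4. Psme4, which encodes the activator PA200, was at 196, 198 and 191 CPM in Ctrl and 201, 202 and 197 CPM in PCBP1-OE (log2 fold change 0.04, 95% interval -0.05 to 0.13), and Psmf1, the inhibitor PI31, at 97.2, 96.4 and 96.3 CPM and at 90.2, 101 and 95.9 CPM (log2 fold change -0.02, 95% interval -0.12 to 0.09). All 4 assembly chaperones with Psmg names had a log2 fold change below 0, and Psmd5, a chaperone of base assembly given above, was at 0.08. The lowest of all 47 genes was Psmg4, which helps to build the alpha ring, at 34.3, 33.0 and 30.8 CPM in Ctrl and 24.5, 27.5 and 30.3 CPM in PCBP1-OE. Its groups did not overlap, though Ctrl replicate 3 and PCBP1-OE replicate 3 nearly met, and a log2 fold change of -0.26 (SE 0.08) came with adjusted p = 0.0681. Psmc3ip was at 30.2, 30 and 24.3 CPM in Ctrl and 25, 22.1 and 24.9 CPM in PCBP1-OE, with overlapping groups (log2 fold change -0.23, adjusted p = 0.133).

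For the 45 subunit and chaperone genes other than Psma8, log2 CPM was set against each gene's mean over the 6 libraries. The measure was below 0 in 10, 9 and 22 of the 45 genes in Ctrl replicates 1, 2 and 3 and in 40, 37 and 20 of them in the PCBP1-OE replicates in that order. Its median was 0.06, 0.055 and 0.002 in Ctrl replicates 1, 2 and 3 and -0.086, -0.048 and 0.01 in PCBP1-OE replicates 1, 2 and 3. Ctrl replicate 3 and PCBP1-OE replicate 3 thus met at the middle, and by this median PCBP1-OE replicate 3 lay above Ctrl replicate 3. Ctrl replicate 3 was the lowest Ctrl library in 30 of the 45 genes and PCBP1-OE replicate 3 the highest PCBP1-OE library in 34. The median SD within groups of log2 CPM was 0.0604 for these genes, beside 0.0985 for all genes tested, and the standard errors of the log2 fold changes were 0.040 to 0.12 without Psma8.

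**Figure D4:**
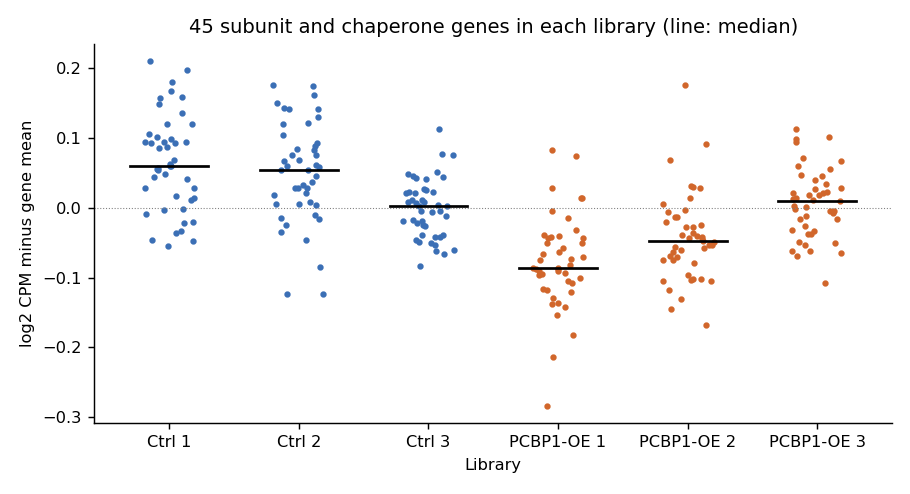
Log2 CPM of 45 subunit and chaperone genes minus each gene's mean over the 6 libraries (vertical axis) by library (horizontal axis), with 1 point per gene and a line at the median. The medians of Ctrl replicates 1 and 2 are the highest, those of PCBP1-OE replicates 1 and 2 the lowest, and those of both replicates numbered 3 lie near 0.

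Genes with high counts tended to have a lower log2 fold change in these libraries. Across all 12624 genes tested, Spearman's rho between mean CPM and log2 fold change was -0.229, given as a description since the genes share the same 6 libraries. In the 1263 genes with the highest mean CPM the median log2 fold change was -0.069, 71.0% were below 0 and 16.3% were called lower. Of the 47 genes 33 were among these, with a median of -0.069, 28 below 0 and 3 called lower. The share of all counts that fell on the 47 genes was 0.918% to 0.931% in Ctrl and 0.895% to 0.915% in PCBP1-OE. The part of expression level in the results was not tested.

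The third comparison set the proteasome genes beside the factors known to drive the inducible ones. Of 12 such factors 11 were tested, and 1 was called higher and 1 lower, with a median log2 fold change of 0.13. Of all genes tested, 4.45% were called higher and 5.0% lower. At an unadjusted p under 0.05 by the same edgeR test, 5 of the 11 were higher and 1 lower, and DESeq2 called 1 higher. The shares over all genes in either direction were 28.4% and 11.2%. The log2 fold change was above 0 in 9 of the 11 and below 0 in 2, beside 49.5% of all genes below 0. The only factor called higher was Irf9, a transcription factor of the response to type I interferon, which rose from 22.9, 23.0 and 25.2 CPM to 29.3, 38.8 and 35.0 CPM (log2 fold change 0.53, SE 0.10, adjusted p = 0.00978, same edgeR test). The groups did not overlap, and the call was lost without Ctrl replicate 2 (0.0692) or PCBP1-OE replicate 2 (0.0551). Ifngr1, a chain of the interferon gamma receptor, fell from 76.6, 76.0 and 77.5 CPM to 66.8, 70.3 and 69.4 CPM (log2 fold change -0.16, adjusted p = 0.0496), a call kept without Ctrl replicate 3 (0.0433) and lost when any other library was left out (0.0839 to 0.170). It was called in 2 of 14 alternative analyses.

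Irf1 and Nlrc5, regulators of MHC class I and immunoproteasome genes, were higher in every PCBP1-OE library without passing the test. Irf1 was at 81.8, 81.1 and 82.5 CPM in Ctrl and 84.7, 93.9 and 89.9 CPM in PCBP1-OE (log2 fold change 0.13, adjusted p = 0.10). Nlrc5 had 16, 18 and 27 counts in Ctrl and 40, 32 and 24 in PCBP1-OE. Its normalized groups did not overlap, a log2 fold change of 0.68 (SE 0.28) came with adjusted p = 0.132, and at this depth the 95% interval ran from 0.07 to 1.28.

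Of the list for class I antigen processing, 8 genes were tested, 1 was called lower and 0 higher, and the median was -0.015. At an unadjusted p under 0.05 by edgeR, 1 was lower and 1 higher, and DESeq2 called 1 lower. Among all genes tested 5.0% were called lower, 28.4% reached an unadjusted p under 0.05, and DESeq2 called 11.2%. The called gene was Calr, a chaperone of the endoplasmic reticulum, at 1100, 1060 and 973 CPM in Ctrl and 889, 884 and 898 CPM in PCBP1-OE (log2 fold change -0.23, SE 0.05, adjusted p = 0.0178); it was called without Ctrl replicate 3 (3.7e-04) or PCBP1-OE replicate 3 (0.0375), and not without another library (0.0601 to 0.0922). Tap1, a chain of the peptide transporter, was at 107, 109 and 116 CPM in Ctrl and 119, 127 and 117 CPM in PCBP1-OE, with no overlap, and a log2 fold change of 0.13 (SE 0.05) came with adjusted p = 0.0952. In RefSeq, Tap1 lies between Psmb8 and Psmb9, so that along this stretch of the MHC the log2 fold changes were 0.08, 0.13 and -0.23. On chromosome 15, Irf9 lies close to the PA28 genes, in the order Psme1, Emc9, Psme2, Rnf31 and Irf9. Their log2 fold changes were -0.22, -0.12, -0.16, -0.01 and 0.53 in that order. These neighbours were looked up after the values of the subunits were known.

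Genes known to drive the constitutive subunits were measured as well. Of 9 tested, 0 were called (0 lower and 3 higher at an unadjusted p under 0.05, and 2 higher by DESeq2), with a median of 0.061. Among all genes tested 9.45% were called, 28.4% reached an unadjusted p under 0.05, and DESeq2 called 11.2%. Nfe2l1, the factor that raises proteasome genes when degradation is blocked, was at 34.0, 29.7 and 40.3 CPM in Ctrl and 41.5, 44.9 and 40.9 CPM in PCBP1-OE. The groups did not overlap, with Ctrl replicate 3 close to PCBP1-OE replicate 3, and a log2 fold change of 0.29 (SE 0.09) came with adjusted p = 0.0655. The motif TGACNNNGC was found in 8 of the 43 promoters (18.6%, against 12.1% of all promoters). Both Psmb5, which was called lower, and Psmb6, which was not called, held it, as these windows show.

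Psmb5, 60 bases before the start, chr15:32047420-32047449, minus strand: cgtgaagctgTGACGTCGCggcgttgcccg
Psmb6, 24 bases before the start, chr10:55737854-55737883, plus strand: ctaaagagagTGACGGAGCgctttacgacc

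Of 11 assembly and associated proteins outside the Psm names that were tested, 0 were called (2 lower and 4 higher at an unadjusted p under 0.05, and 0 by DESeq2), with a median of 0.023. Of 9 ubiquitin genes and shuttle factors, 0 were called (2 lower and 1 higher at an unadjusted p under 0.05, and 1 lower and 1 higher by DESeq2), with a median of 0.022. Beside both lists, 9.45% of all genes tested were called, 28.4% reached an unadjusted p under 0.05, and DESeq2 called 11.2%.

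**Figure D5:**
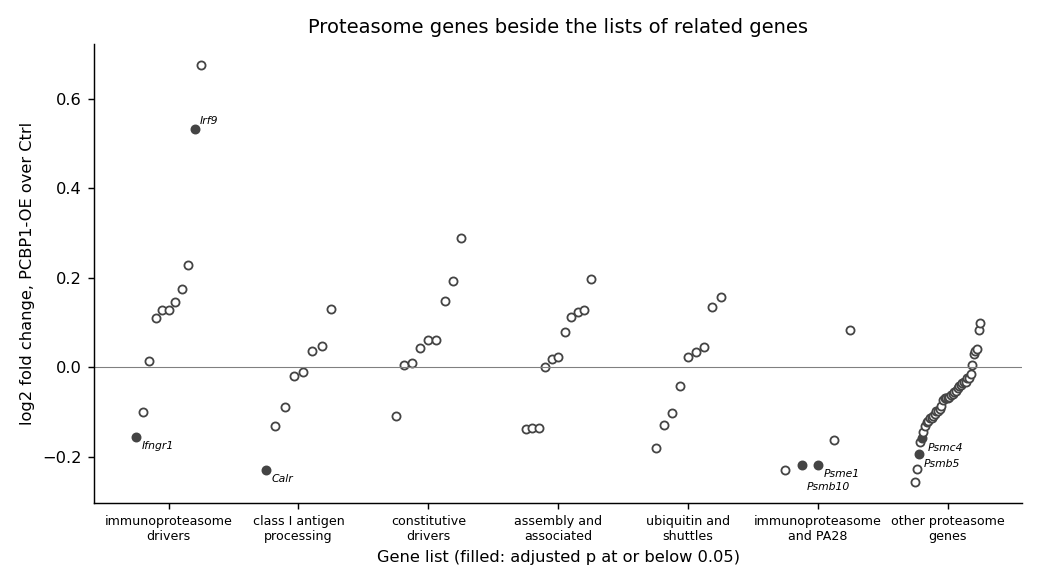
Log2 fold change of PCBP1-OE over Ctrl (vertical axis) for the tested genes of 5 related lists, the 5 immunoproteasome and PA28 genes and the other proteasome genes without Psma8 (horizontal axis); each point is a gene, and filled points passed an adjusted p of 0.05. Irf9 is the only called gene above 0, and Psmb10, Psme1, Psmb5 and Psmc4 are among the called genes below 0.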

How the data were processed

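Poly-A RNA of PC12 cells was sequenced as 3 Ctrl and 3 PCBP1-OE paired-end libraries, for which the labels name a stranded kit. Per the study's methods, the authors trimmed reads with FASTX-Toolkit, aligned them to the rat genome with TopHat2 and deposited raw counts of uniquely mapped reads per gene. The submitters' processing notes name a human build, GRCh38, but the gene identifiers are those of rat. Not given in the sources used here are the tool for counting, whether it used strand, and the release of the annotation, so counts of overlapping genes, and of subunits with near-identical pseudogenes, are uncertain. The study calls the replicates biological, but neither it nor the labels say whether they came from separate cultures, so p-values measure only the spread between these libraries.

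Each library held between 19730209 and 22315623 counts, which limits the precision for weakly expressed genes. The counts were scaled by TMM and compared between the groups by edgeR's quasi-likelihood test (version 4.0.16 under R 4.3.3) on all 6 libraries. filterByExpr (minimum count 10, minimum total count 15) kept 12624 genes, all 47 members among them, and left out 7985. P-values were adjusted by Benjamini-Hochberg over these genes. Standard errors are the log2 fold change over the root of the test's F. Ratios used a pseudocount of 0.5 counts and exact permutation tests in Python 3.11.15. The pipeline was tested on simulated data. In the simulation for the edgeR fit, the changes set were larger than those of the called members, so it does not cover differences of their size.

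The members, lists and tests were chosen with earlier results of these data known. Named genes are the 5 inducible genes and their counterparts, the other members called, the 3 highest and 3 lowest of the others, the listed genes called (at most 4 a list), and Tap1, Irf1, Nlrc5 and Nfe2l1; other members shown were chosen after their values were seen. Ratios to Psme3 were planned and not run. Sem1 and Ecpas were matched as Shfm1 and AI314180, and Ubb and Paaf1 were not analysed here. Of the listed genes, 2 are not reported here and were left out of the counts of their lists. Results were recomputed with other scalings (RLE, upper quartile), without the filter or with 1 CPM required in 3 libraries, with other tests (DESeq2 1.42.0, limma-voom in limma 3.58.1, the likelihood-ratio test of edgeR), with a replicate block, and leaving out single libraries.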

Additional observations from a re-analysis of the deposited data

How the results depend on the processing

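The direction of all 4 called members held in all 14 alternatives, and their calls did not. The number of the 5 immunoproteasome and PA28 genes called was 2, and it was 1 with upper-quartile scaling or limma-voom. It was 3 with DESeq2 or the likelihood-ratio test, which also called Psme2 (adjusted p = 0.041 and 0.0492). With no filter it was 4 and with the replicate block 0, in a range of 0 to 4 when 1 library was left out. Of the 42 other genes 2 were called, against 1 with upper-quartile scaling, 3 with DESeq2 or the likelihood-ratio test, 5 with no filter and 0 with the replicate block. With 1 library left out the range was 0 to 14, and 14 only without Ctrl replicate 3, where 11.4% of all genes tested were called lower. The median log2 fold change of the 5 genes ranged from -0.28 to -0.17 with 1 library left out. That of the 42 others was -0.048 with upper-quartile scaling, which raised the median of all genes tested to 0.023, and ranged from -0.10 to -0.049 with 1 library left out. Psmb6 turned sign at 0.012 without Ctrl replicate 2 (range -0.089 to 0.012 with 1 library left out), and Psma8 at -0.14 without PCBP1-OE replicate 3 (range -0.14 to 0.70).

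Psmb10 had an adjusted p of 0.0595 with upper-quartile scaling and 0.0526 with limma-voom, and Psmc4 0.0604 with upper-quartile scaling. Over all alternatives the adjusted p was 0.00108 to 0.203 for Psme1, 0.00238 to 0.184 for Psmb10, 0.00197 to 0.187 for Psmb5 and 0.0119 to 0.200 for Psmc4. The 3 ratios kept their direction with a pseudocount of 5 counts and with 1 library left out, where the Psmb8 to Psmb5 difference was 0.19 to 0.35, that of Psmb9 to Psmb6 -0.22 to -0.10 and that of Psmb10 to Psmb7 -0.12 to -0.092.

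Among drivers of immunoproteasome genes 2 were called, 3 with no filter or the likelihood-ratio test and 1 with RLE scaling, the stricter filter, DESeq2 or limma-voom. The count was 0 with the replicate block and 0 to 6 with 1 library left out, 6 only without Ctrl replicate 3. For class I antigen processing 1 was called, 0 with the replicate block and 0 to 2 with 1 library left out. For drivers of constitutive genes 0 were called, 1 with upper-quartile scaling, 3 with no filter, 2 with DESeq2 or the likelihood-ratio test and 0 to 2 with 1 library left out. For assembly and associated proteins 0 were called, 1 with upper-quartile scaling, no filter or the likelihood-ratio test and 0 to 4 with 1 library left out. For ubiquitin genes and shuttles 0 were called, 1 with upper-quartile scaling, the likelihood-ratio test or limma-voom, 2 with no filter or DESeq2 and 0 to 2 with 1 library left out. The cause of these shifts was not tested.

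Over all genes, 1193 were called, 562 higher and 631 lower, against 655 and 427 with upper-quartile scaling. In all, 2090 were called with no filter, 1418 with DESeq2 and 16 with the replicate block. With 1 library left out the number was 48 (without Ctrl replicate 2) to 2860 (without Ctrl replicate 3). Libraries with the same replicate number did not deviate together (r = -0.0776, -0.0514 and -0.0428 across genes for numbers 1, 2 and 3), so the numbers were not taken to pair the libraries, and no library correlated best with its own number.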

Other observations

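Rows of the count table that resemble subunit genes but fall outside the symbol rule were few. LOC100361067, a processed pseudogene described as like Psma3, had 36, 29 and 65 counts in Ctrl and 54, 61 and 70 in PCBP1-OE, with overlapping groups (log2 fold change 0.55, SE 0.26, adjusted p = 0.189, edgeR's quasi-likelihood test). With 1 library left out its log2 fold change ranged from 0.34 to 0.90, the lowest without Ctrl replicate 2 and the highest without Ctrl replicate 3, where it was called (adjusted p = 0.0192 by edgeR). LOC100911238, described as like the maturation protein Pomp, had 2 to 15 counts per library and was not tested. Pomp, the chaperone that completes core particle assembly, had only 40 to 68 counts per library, with a log2 fold change of -0.13 and an adjusted p of 0.755, and it ranged from -0.29 to 0.115 with 1 library left out, above 0 only without Ctrl replicate 2.

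Lcat, the gene next to Psmb10 on chromosome 19 in RefSeq and an enzyme of cholesterol transport in plasma, fell in PCBP1-OE with a log2 fold change of -0.24 (SE 0.06, with adjusted p = 0.0306 by edgeR), beside -0.22 for Psmb10. With single libraries left out it was called only without Ctrl replicate 3 (0.00482), and the adjusted p was 0.0725 to 0.141 in the other fits. How strand was handled in counting is not known, so reads shared between neighbours cannot be told apart. Tap2 appears under 2 identifiers, with 2 to 14 and 5 to 19 counts per library, and neither was tested.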
